A study of Mus musculus with 16 samples.

Results

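The Cyp2c gene cluster was examined as the stretch of chromosome 19 from 39030000 to 40300000 (NCBI37/mm9), which holds the genes Cyp2c29, Cyp2c37, Cyp2c38, Cyp2c39, Cyp2c40, Cyp2c50, Cyp2c54 and Cyp2c70. Its members were all H3K27Ac peaks that reached into this 1.27 Mb window in any of 15 peak lists. They were 235 of 500869 peaks, and they merged into 35 of the 56941 regions found over chromosomes 1 to 19 and X. H3K27Ac, the acetylation of lysine 27 of histone H3, marks active promoters and enhancers, and it had been mapped by ChIP-seq in liver tissue of 15 mice, each sample from a different animal. The 5 WT livers carried intact Mdr2 (strain FVB.129P2 in the labels, FVB/NJ in the methods text). The 5 inflamed livers and the 5 HCC nodules, hepatocellular carcinomas cut out of the liver, came from Mdr2-KO mice (FVB.129P2-Abcb4tm1Bor/J), which lack the hepatocyte transporter of phosphatidylcholine in every cell of the body. WT livers and HCC nodules were taken at 14 to 19 months of age and inflamed livers at 7 to 8 months, so that age and genotype cannot be told apart between inflamed and WT livers, nor age and tumour between HCC nodules and inflamed livers. Between HCC nodules and WT livers, genotype and tumour cannot be told apart. All 15 mice, controls included, had received clodronate liposomes (50 µg/g body weight in the labels, a dose the methods text gives differently) for 48 hours, which deplete macrophages. Males and females had been used, and the labels do not give the sex of an animal. In whole tissue, fewer cells of a type and less acetylation per cell cannot be told apart.

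Cyp2c enzymes are cytochrome P450 monooxygenases of the hepatocyte endoplasmic reticulum that hydroxylate or epoxidize drugs, steroids, retinoids and polyunsaturated fatty acids. Cyp2c29, Cyp2c37, Cyp2c38, Cyp2c50 and Cyp2c54 act on arachidonic acid, as does Cyp2c40. Cyp2c39 oxidizes retinoic acid, and Cyp2c70 makes the muricholic acids that set the mouse bile acid pool apart from the human one. Cyp2c29 and Cyp2c37 are classical targets of the Constitutive Androstane Receptor (CAR), a nuclear receptor that switches on detoxification genes, and several P450 genes of mouse liver differ in expression between males and females.

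In the RefSeq annotation (GRCm38.p6, used here for gene order only) the cluster held 18 Cyp2c entries, of which 14 were protein-coding genes and 4 were pseudogenes. In the order of their left ends the coding genes were Cyp2c55, Cyp2c65, Cyp2c66, Cyp2c29, Cyp2c39, Cyp2c38, Cyp2c67, Cyp2c68, Cyp2c40, Cyp2c69, Cyp2c37, Cyp2c54, Cyp2c50 and Cyp2c70. Cyp2c39 has more than 1 start, and its last start lies right of the start of Cyp2c38. No annotation of the build of the peak lists was used here, so peaks could be tied to a gene only at Cyp2c37, for which the study drew a browser view of chromosome 19 from 40058300 to 40095350 (NCBI37/mm9). Of the 35 regions, 27 lay left of this view, the side of the other 10 coding genes from Cyp2c55 to Cyp2c69. Just 1 region lay inside the view, and 7 lay to its right, the side of Cyp2c54, Cyp2c50 and Cyp2c70.

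Some of the genes are close copies of one another and others are more distant, as the sequence before their starts shows. The 150 bases before the start of 6 of them are shown, as RefSeq gives them in GRCm38.p6 (a different build from that of the peaks, with positions that cannot be set against them). They are Cyp2c37, the gene of the browser view, and its near copy Cyp2c50 (chr19:39992274-39992423 and chr19:40089529-40089678, plus strand), the most alike pair Cyp2c40 and Cyp2c69 (chr19:39812815-39812964 and chr19:39886770-39886919, minus strand), and Cyp2c29 (chr19:39286935-39287084, plus strand) and Cyp2c70 (chr19:40187287-40187436, minus strand) as members more distant from these pairs. Each runs 5′ to 3′ on the strand of its gene, and capitals mark matches to CAAAGTCCA, the core bound by the hepatocyte receptor HNF4A, with up to 1 mismatch.
Cyp2c37: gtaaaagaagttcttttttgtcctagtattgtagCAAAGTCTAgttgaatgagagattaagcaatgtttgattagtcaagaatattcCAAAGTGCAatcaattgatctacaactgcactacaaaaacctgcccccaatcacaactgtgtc
Cyp2c50: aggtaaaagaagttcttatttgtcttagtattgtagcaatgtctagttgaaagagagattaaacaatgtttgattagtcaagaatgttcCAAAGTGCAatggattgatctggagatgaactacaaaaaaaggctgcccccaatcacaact
Cyp2c40: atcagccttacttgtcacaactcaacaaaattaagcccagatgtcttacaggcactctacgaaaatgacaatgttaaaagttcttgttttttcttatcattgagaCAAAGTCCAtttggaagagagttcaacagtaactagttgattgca
Cyp2c69: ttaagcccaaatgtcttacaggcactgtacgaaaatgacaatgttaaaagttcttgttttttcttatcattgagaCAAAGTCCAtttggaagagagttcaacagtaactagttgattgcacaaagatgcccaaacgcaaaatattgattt
Cyp2c29: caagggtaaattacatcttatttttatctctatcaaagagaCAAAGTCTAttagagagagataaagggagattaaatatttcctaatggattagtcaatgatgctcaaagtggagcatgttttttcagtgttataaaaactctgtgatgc
Cyp2c70: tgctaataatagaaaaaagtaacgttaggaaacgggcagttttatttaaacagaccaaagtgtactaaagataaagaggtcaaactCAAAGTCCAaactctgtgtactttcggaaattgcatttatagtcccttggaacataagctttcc

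Promoter sequences were held for 7 of the 8 member genes and, with the other Cyp2c genes of the cluster, for 14 starts. Within the 250 bases before the start, CAAAGTCCA with up to 1 mismatch was found, on either strand, at 13 of the 14 starts, against 7.05% of all 32851 starts in the table. The start without a match was that of Cyp2c38. Since the genes descend from common copies, the 14 starts do not count as separate observations. The hexamer AGGTCA, the unit from which nuclear receptor sites are built, searched without mismatch, was present at 3 starts (Cyp2c29, Cyp2c70 and 1 of the 2 starts of Cyp2c39; 14.0% of all starts). Its direct repeat with 4 bases between, the kind that CAR binds, was found at 0 of 14 starts with up to 2 mismatches (2.57% of all), and the repeat with 1 base between, which overlaps the hexamer, at Cyp2c29 (3.24% of all). TATAAA was present at 7 starts (12.4% of all) and GTTAAT, part of the HNF1 site, at 3 (6.43% of all), namely Cyp2c68, Cyp2c40 and Cyp2c69. TTCNNNGAA, the core of STAT sites (7.02% of all), and TGANTCA, the core of AP-1 sites (6.75% of all), were found at none of the 14 starts within these 250 bases. These are matches of letters and not measured binding.

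The copies could matter for the measurement, because the reads were 36 bases long. Over the 300 bases around the start, 65.3% of the 36-base stretches of Cyp2c40 and 60.4% of those of Cyp2c69 occurred at the start of another gene as well. The upstream sequences of this pair were identical at 217 of 220 aligned bases (98.6%). Cyp2c37 and Cyp2c50 were identical at 215 of 245 aligned bases (87.8%) and shared 37 of 265 stretches, whereas Cyp2c29, Cyp2c38 and Cyp2c70 shared none with any other start. Such likeness was not general, with Cyp2c29 and Cyp2c70 identical at 124 of 218 aligned bases (56.9%), among the lowest values. Cyp2c29 was closer to Cyp2c38 (82.0%) and to the first start of Cyp2c39 (82.3%). Over all 14 starts, 577 of 3710 stretches (15.6%) were shared, those between the pair of Cyp2c39 starts included. How reads that match several places were handled is not given in the sources used here, and the part of such reads in the peaks was not tested.

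Across the whole series the lists held 26375 to 42736 peaks and covered 92.5 to 175.3 Mb, and read depth is unknown. WT animal 130748 and HCC animal 124711 lay apart from their own groups over the genome and were each other's nearest lists (Jaccard index, the shared share of all bases under peaks in either, 0.630). The paper left 2 of the 15 samples out of its principal component plot of H3K27Ac as outliers, and its text does not say which. Peaks on chromosome Y were present in 2 lists, WT 134501 with 15 and HCC 124711 with 13, and absent from the other 13. Where leaving them out changed whether a comparison passed, the value without them is given.

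H3K27Ac peaks covered a mean of 72.0 ± 35.7 kb of the Cyp2c window in WT livers, 51.1 ± 9.6 kb in inflamed livers and 55.5 ± 43.3 kb in HCC nodules (SD, n = 5 each). In WT livers the covered length was 65.0 kb in animal 134501, 102.8 kb in 129296, 96.8 kb in 130747, 81.5 kb in 129297 and 13.8 kb in 130748. In inflamed livers it was 53.2 kb in 148997, 42.5 kb in 148998, 54.3 kb in 149198, 41.0 kb in 149199 and 64.4 kb in 148990. In HCC nodules it was 13.2 kb in 124711, 57.3 kb in 125278, 42.4 kb in 125279, 37.2 kb in 123206 and 127.6 kb in 123390. The inflamed livers lay close together, 4 WT livers lay above all of them and 1 far below, and the nodules held both the lowest and the highest value of the series. The difference of inflamed minus WT was -20.9 kb and lay within the spread between animals (exact permutation test, two-sided, p = 0.230, adjusted p = 0.690 over 3 comparisons). HCC minus inflamed was 4.5 kb (exact permutation test, adjusted p = 0.897) and HCC minus WT -16.4 kb (exact permutation test, adjusted p = 0.798). With 5 animals against 5, the smallest p that this test can give is 0.00794. Of 1899 stretches of the same length over the genome, 1.26% had a lower covered length in all inflamed than in all WT livers, and the Cyp2c window was not among them.

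**Figure D1:**
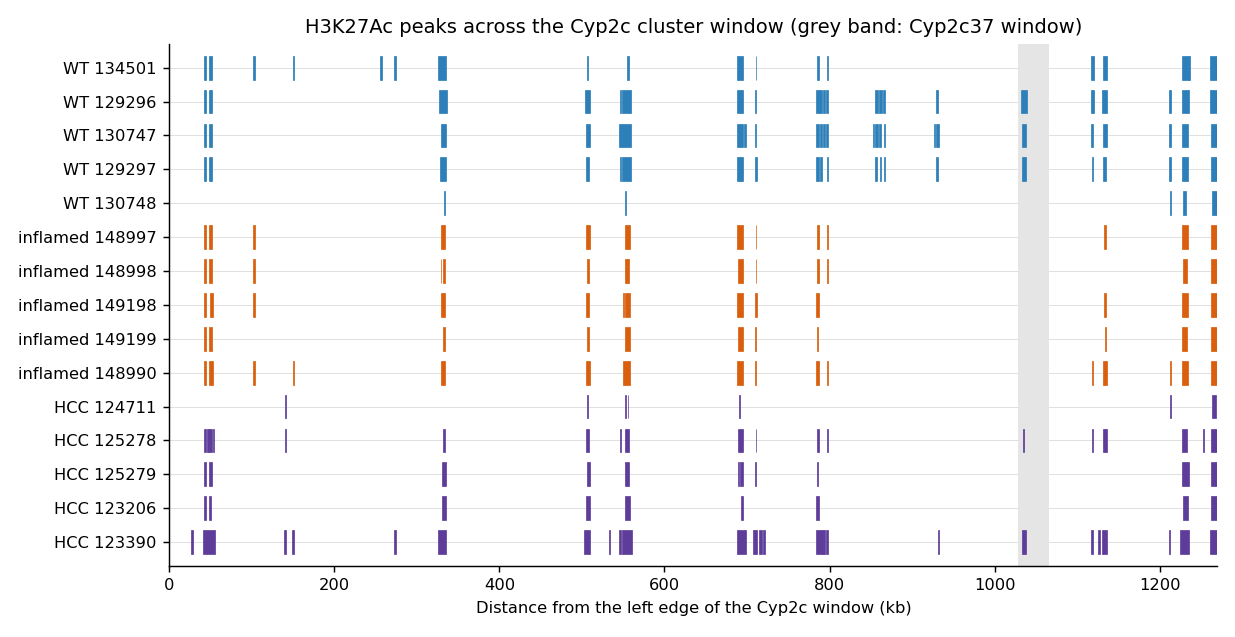
H3K27Ac peaks of each animal (rows, coloured by group) against the distance from the left edge of the Cyp2c window in kb. The grey band is the Cyp2c37 window, where 3 WT livers and 2 HCC nodules had a peak and no inflamed liver had one.

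One WT list decided this comparison. Without WT animal 130748, whose list also lay apart over the whole genome, the 4 remaining WT livers all exceeded all 5 inflamed livers (by as little as 65.0 against 64.4 kb), the difference was -35466 bp and it passed the test (exact permutation test, adjusted p = 0.0238). This list was the only WT one below the inflamed livers, so leaving it out fixed the separation beforehand. The p is then the smallest this test can give, and it is no independent support. With the 2 lists that lay apart left out, 6.53% of all stretches of the same length separated in this way. The number of peaks behaved alike. There were 18, 22, 27, 22 and 5 peaks in WT livers, 13, 14, 13, 11 and 16 in inflamed livers, and 8, 20, 11, 9 and 26 in HCC nodules, in the order of animals above. The means were 18.8 ± 8.35, 13.4 ± 1.82 and 14.8 ± 7.85 (SD over 5 animals). None of the 3 differences passed (two-sided exact permutation tests, with adjusted p = 0.667 for inflamed minus WT, 0.762 for HCC minus inflamed and 0.726 for HCC minus WT). Without WT animal 130748, inflamed minus WT was -8.85 peaks (exact permutation test, adjusted p = 0.0238), again fixed by that choice. The share of stretches over the genome that separate alike in number of peaks is not given here.

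The lists differed in total length, so the window was also expressed as a share of all bases under peaks of the same animal. WT livers had 0.0506% in animal 134501, 0.0695% in 129296, 0.0697% in 130747, 0.0694% in 129297 and 0.0126% in 130748. The inflamed livers ranged from 0.0298% to 0.0433% with a median of 0.0339%, and the HCC nodules from 0.0143% to 0.0756% with a median of 0.0270%. Thus 4 of 5 WT livers exceeded every inflamed liver, and the fifth lay below all of them. The mean share was 0.0544 ± 0.0247% in WT, 0.0346 ± 0.0054% in inflamed and 0.0360 ± 0.0238% in HCC nodules (SD over 5 animals). No comparison passed (exact permutation tests, adjusted p = 0.357, 0.937 and 0.393 for inflamed minus WT, HCC minus inflamed and HCC minus WT). A lower share in all inflamed than in all WT livers was found for 7.95% of stretches. Without WT animal 130748 the share was lower in inflamed livers by a difference of -0.0302 percentage points (exact permutation test, adjusted p = 0.0238), in a setting where 19.2% of stretches separated alike. Here too the separation followed from leaving out the only WT list below the inflamed livers.

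**Figure D2:**
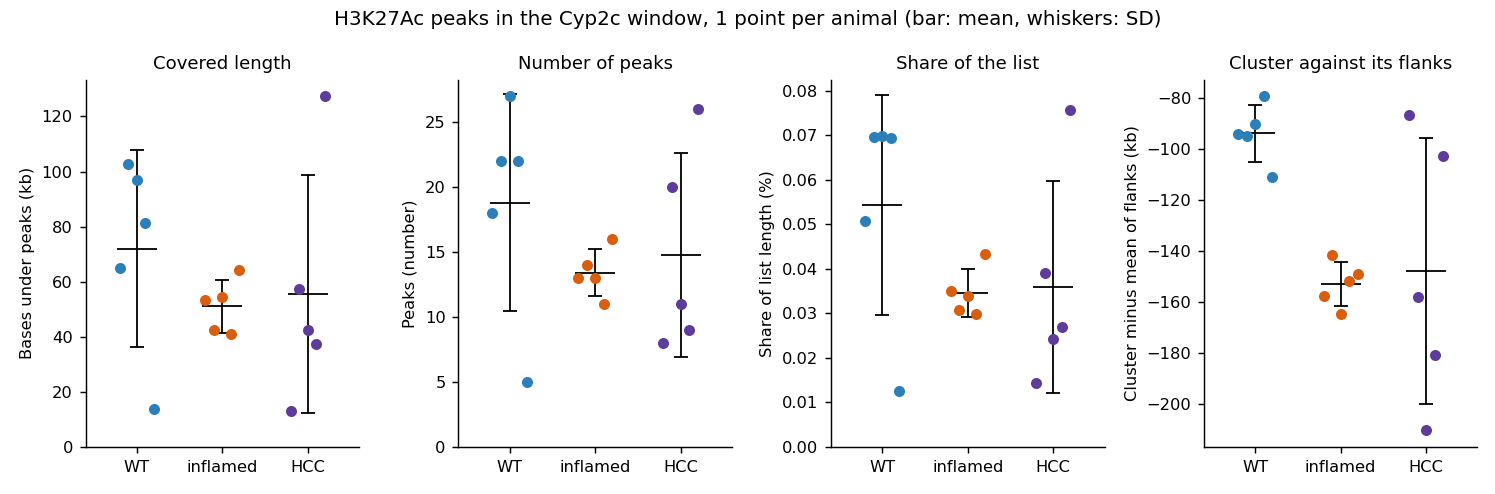
Covered length (kb), number of peaks, share of the list's covered bases (%) and covered length of the cluster minus the mean of its flanks (kb), 1 point per animal, with mean and SD of the 5 animals of a group. WT 130748 lies at 13.8 kb under the other WT livers in the first panel, and the groups WT and inflamed do not overlap in the last panel.

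Set against its surroundings, the cluster was lower in all inflamed than in all WT livers. For each animal the mean covered length of the 2 neighbouring stretches of equal length was subtracted, and both flanks had a higher covered length than the cluster in every animal. This value was -94.1 kb in WT animal 134501, -94.8 kb in 129296, -90.1 kb in 130747, -79.3 kb in 129297 and -110.7 kb in 130748. It ranged from -164.6 to -141.6 kb in inflamed livers and from -210.2 to -86.4 kb in HCC nodules, so inflamed and WT livers did not overlap while the nodules overlapped both. From WT to inflamed livers the value fell by 59.1 kb (means -93.8 ± 11.3 and -152.9 ± 8.7 kb, SD, n = 5 each, exact permutation test, p = 0.00794, the smallest it can give, adjusted p = 0.0238). The cluster's own difference made -20.9 kb of this, and the remainder came from higher flanks. The left flank covered 99.1 ± 23.2 kb in WT and 144.3 ± 12.5 kb in inflamed livers, and its ranges did not overlap (62.2 to 120.3 against 129.4 to 159.2 kb). The right flank covered 232.4 ± 34.2 and 263.6 ± 19.2 kb. Over the genome 23.3% of stretches had a higher covered length in all inflamed than in all WT livers, and 13.9% of 2010 stretches fell against their own neighbours as the cluster did. HCC minus WT was -53.9 kb (exact permutation test, adjusted p = 0.119), and -69188 bp without HCC animal 124711 (exact permutation test, adjusted p = 0.0238). HCC minus inflamed was 5.2 kb (exact permutation test, adjusted p = 0.833).

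In the Cyp2c37 window the 37051 bp held 1 region, from 40062315 to 40068968, and it was occupied in 3 WT livers, no inflamed liver and 2 HCC nodules. The peak spanned 6654 bp in WT animal 129296, 5889 bp in 130747 and 5677 bp in 129297, and no peak was listed in 134501 or 130748. In the nodules it spanned 5925 bp in 123390 and 787 bp in 125278. The edges of the 4 wide peaks nearly coincided, from 40062315 to 40062634 on the left and from 40068303 to 40068968 on the right. Their scores ranked at percentiles 92.2, 69.0 and 68.4 of their own lists in the WT livers and 94.7 in HCC animal 123390, whereas the short peak of 125278 ranked far lower, with a score of 79.82 against at least 1229.38 in the others. The mean covered length was 3644 ± 3346 bp in WT and 1342 ± 2584 bp in HCC nodules (SD over 5 animals), and 0 bp in all inflamed livers. No comparison passed (exact permutation tests, adjusted p = 0.444 for each of the 3). Inflamed minus WT was -3644 bp, and -4555 bp without WT 130748 or without WT 134501 (exact permutation tests, p = 0.0476, adjusted p = 0.143 in both). A peak that was not listed may lie below the caller's threshold, and does not show that acetylation was absent.

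The pattern of Cyp2c37 was shared by 5 other regions of the cluster. Occupancy of at least 3 WT livers and no inflamed liver, a rule set with the occupancy known, was found for 6 of the 27 cluster regions with a peak in either group, against 3.29% of 44697 regions over the genome, while the opposite was found for 0 of 27 against 13.6%. All 6 regions had a peak in the same 3 WT livers, 129296, 130747 and 129297, and in neither 134501 nor 130748. The 6 regions therefore rest on 3 animals and are not 6 separate observations. They lay at 39575242 to 39578249, at 39885259 to 39888926, 39890198 to 39893286 and 39894874 to 39897178, at 39959202 to 39961439, and in the Cyp2c37 window. In the trio between 39885259 and 39897178 the covered lengths were 3478, 3089 and 2305 bp in 129296, 3101, 2107 and 1344 bp in 130747, and 2366, 1437 and 1213 bp in 129297. This trio and the region at 39959202, which covered 2218, 2228 and 1949 bp in the same animals, had no peak in any nodule. They are 161.1 to 169.4 kb and 96.9 kb left of the Cyp2c37 window, and in the reference order the next coding genes on that side of Cyp2c37 are Cyp2c69, beyond the pseudogene Cyp2c71-ps, and then Cyp2c40. The region at 39575242 covered 1939, 3008 and 1854 bp in the WT livers and returned in 2 nodules, with 1289 bp in 125278 and 1981 bp in 123390, the same nodules that held the Cyp2c37 peak. Together the 6 regions made up 49.6% of the difference in mean covered length between inflamed and WT livers, and 36.6% without WT 130748. The rule admits no inflamed peak, so the direction of this part was fixed beforehand and gives no separate support for a difference. The 3 WT lists in question held no peak on chromosome Y, as did 130748, while 134501 held 15. The part of sex in this pattern was not tested.

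**Figure D3:**
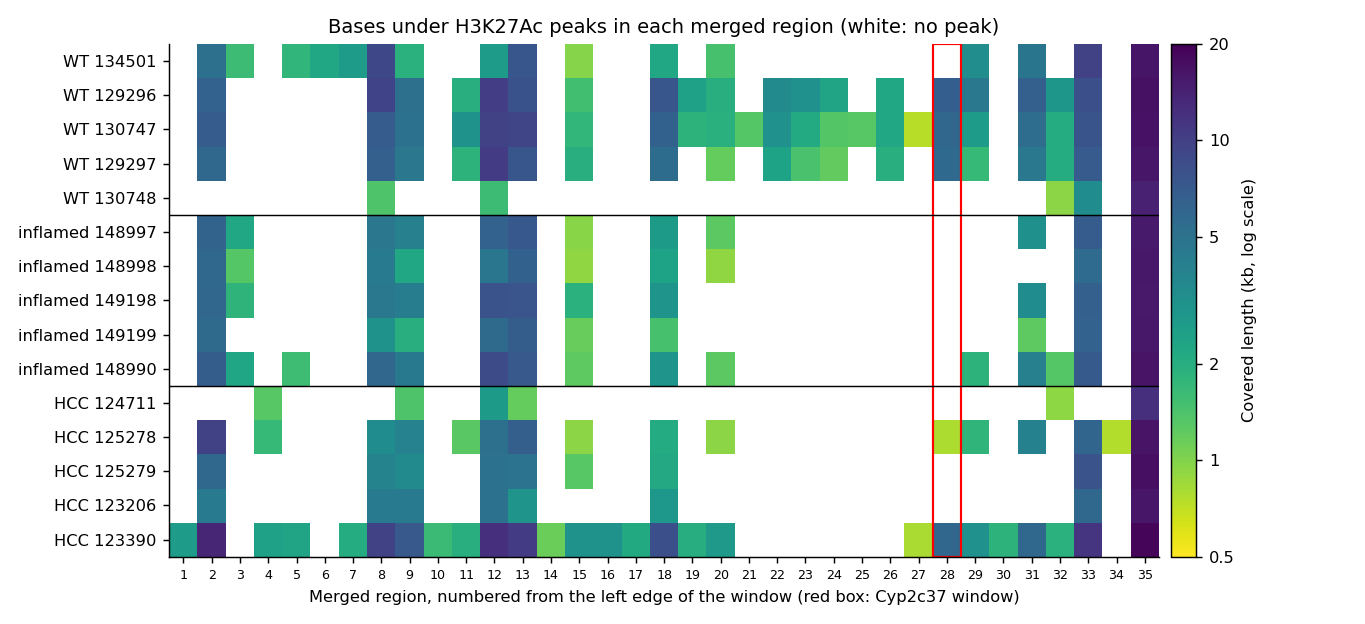
Covered length in kb (colour, log scale) of each of the 35 merged regions (columns, numbered from the left edge of the window) in each animal (rows). White means no peak. Regions 22, 23, 24 and 26 were occupied in 3 WT livers alone, and region 28 is the Cyp2c37 window.

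A common core of regions was present in nearly every animal. Peaks were found in 13 or more animals at 8 of the 35 regions, and in all 15 at 2. The share of regions over the genome with such occupancy is not given here, so these counts do not set the cluster apart. The first of these 2, at 39578555 to 39590747, covered 2597, 10238, 9862, 10531 and 1600 bp in the WT livers, 6281, 4689, 7729, 5607 and 8525 bp in the inflamed livers, and 2667, 5161, 4974, 5055 and 12193 bp in the nodules, in the order of animals above. It was widest in the 3 WT livers named above and in nodule 123390, and the groups overlapped. The second, at 40291394 to 40310555, runs past the right edge of the window. It covered 14245 to 17018 bp in WT livers (median 16306 bp), 15341 to 16471 bp in inflamed livers (median 15682 bp) and 12056 to 19119 bp in nodules (median 16455 bp), and so varied little next to its length. The 8 core regions covered 47.7 ± 20.5 kb of the window in WT livers, 44.3 ± 5.3 kb in inflamed livers and 43.1 ± 25.1 kb in nodules (SD, n = 5 each). The other 27 regions covered 24.3 ± 15.5, 6.7 ± 4.4 and 12.5 ± 19.7 kb. These less common regions held 84.0% of the difference between inflamed and WT livers. The near-equal core rested on WT 130748, with 12.9 kb. Without it and HCC 124711 the core covered 56.4 ± 7.4 kb in 4 WT livers and 51.1 ± 20.2 kb in 4 nodules, its difference of inflamed minus WT went from -3.3 to -12.0 kb, and the part of the less common regions became 66.1%. The 2 sets were formed after occupancy was known, and were not tested.

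The 8 core regions had a peak in every animal but WT 130748 and HCC 124711, which had 4 of the 8 each. The longest stretch without a peak in any animal ran over 166.3 kb, from 39366180 to 39532447.

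No region of the cluster had a peak in every animal of one group and in none of another, in any of the 6 directions. Over the genome, a peak in all inflamed and no WT livers was found for 6.14% of 44697 regions and the reverse for 0.508%. A peak in all HCC and no inflamed samples was found for 0.110% of 54675 regions and the reverse for 1.33%, and a peak in all HCC and no WT samples for 0.239% of 52284 regions and the reverse for 0.159%. The cluster had 27, 28 and 35 regions to count in, and each of these shares corresponds to fewer than 2 of them. Under the looser rule of at least 4 animals against at most 1, 2 regions were found in WT against inflamed livers (2.53% of regions over the genome), 1 in inflamed against WT livers (15.9%) and 1 in inflamed livers against nodules (6.44%). The WT pair lay right of Cyp2c37. The region at 40146362 to 40150950 covered 3298, 4589, 2626 and 1685 bp in 4 WT livers, 1832 bp in inflamed animal 148990, and 1791 and 3090 bp in nodules 125278 and 123390. The region at 40240920 to 40243770 covered 2818, 2031, 2046 and 945 bp in 4 WT livers (130748 included, 134501 not), 1330 bp in inflamed animal 148990, and 941 and 1899 bp in nodules 124711 and 123390. The inflamed one lay at the far left, at 39131439 to 39133787, with 2188, 1319, 1812 and 2285 bp in 4 inflamed livers, 1597 bp in WT animal 134501 and no peak in any nodule. It was the sole region of the cluster in which inflamed livers exceeded WT livers by 3 animals or more.

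Of the 27 cluster regions with a peak in WT or inflamed livers, 15 had a peak in fewer inflamed than WT livers and 6 in more, whereas over the genome 16.8% of such regions had fewer and 46.9% had more. A peak in some WT liver and no inflamed liver was found for 12 of the 27, against 12.2% over the genome. Of these 12, 5 had a peak in some nodule, against 58.4% of such regions over the genome. Of the 28 regions with a peak in nodules or inflamed livers, 15 had a peak in more nodules and 8 in fewer, against 32.4% and 38.2% over the genome. Among all 35 regions, 7 were seen in WT livers alone (3.98% over the genome), 0 in inflamed livers alone (8.18%) and 8 in nodules alone (21.5%). Regions of the cluster share animals and lie side by side, so these counts were not tested. Of the 8 regions seen in nodules alone, 6 were found in animal 123390 by itself and 1 in 125278 by itself. The remaining one, at 39169064 to 39171482, was the sole region with 3 nodules and no other sample, with 1307 bp in 124711, 1692 bp in 125278 and 2419 bp in 123390. The count of nodule regions thus depends on 1 animal, whose peaks covered 127.6 kb of the window against 13.2 to 57.3 kb in the other 4. Without 123390, HCC minus inflamed turned from 4.5 kb to -13528 bp of covered length (exact permutation test, adjusted p = 0.230).

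Within the window the inflamed livers resembled one another more than the WT livers or the nodules did, as they did over the whole genome (mean index 0.760 for inflamed, 0.649 for WT and 0.492 for HCC pairs). The base-pair Jaccard index averaged 0.751 ± 0.072 over the 10 pairs of inflamed livers, 0.443 ± 0.283 over the WT pairs and 0.378 ± 0.214 over the HCC pairs (SD over pairs that share animals, with no test). Without the 2 lists that lay apart, the WT and HCC pairs averaged 0.636 and 0.503. The WT livers 129296, 130747 and 129297 matched each other best (up to 0.813), while WT animal 134501 was nearest to an inflamed liver, 148990 (0.639). Among nodules, 125278 and 125279 were also nearest to inflamed livers (0.682 and 0.806), 123206 to nodule 125279 (0.765), and 123390 to WT liver 129296 (0.597). The nodules thus fell on several sides, and their group mean describes no single one of them. In score, the peaks of the window had a median percentile within their own list of 45.3 ± 12.5 in WT, 61.7 ± 6.4 in inflamed and 45.5 ± 15.6 in HCC samples (SD, n = 5 each). The scale of the score is not stated and peaks at its top value share one rank, so no test was made on it. Without the 2 lists that lay apart the WT and HCC values were 49.3 ± 10.1 and 52.1 ± 6.4 (SD, n = 4 each).

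**Figure D4:**
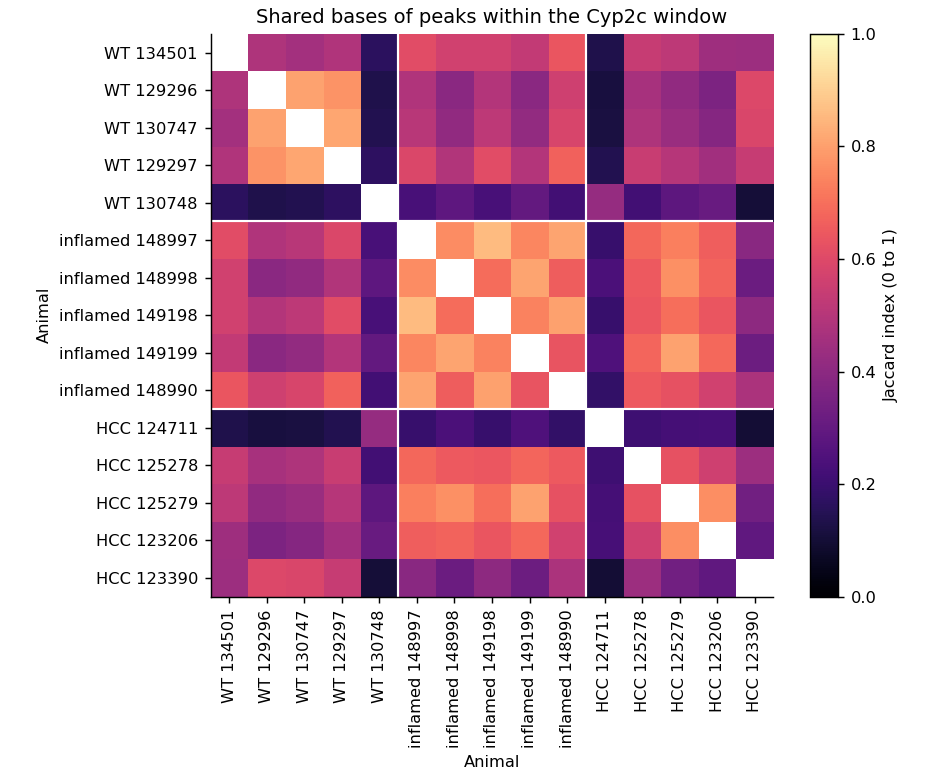
Jaccard index of bases under peaks within the Cyp2c window for each pair of animals (0 to 1, white lines between groups). The inflamed livers form the most even block (0.633 to 0.856), and WT 130748 and HCC 124711 are low against all others but each other (0.423).

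The cluster was not unusual in level for its length. Its mean covered length exceeded 63.6% of stretches of the same length in WT livers, 47.5% in inflamed livers and 51.4% in HCC nodules, or 68.2% and 53.3% in WT and HCC samples without the 2 lists that lay apart. The median stretch covered 43.8 kb in WT, 56.7 kb in inflamed and 52.9 kb in HCC samples, so that the typical stretch was higher in inflamed than in WT livers while the mean of the Cyp2c window was lower.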

How the data were processed

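H3K27Ac ChIP-seq (antibody Abcam ab4729, 5 µg, 36 bp single-end reads) was performed by the authors on 15 livers or nodules, 5 per group. Per the labels, reads were aligned with Bowtie 0.12.7 to mm9 and peaks called with MACS 1.4, and the deposited files hold one peak list per animal with a score per peak. The deposited score ran from 50 to 3233.06, and many peaks shared the value 3100. The control and threshold of the caller and the handling of reads with several matches are not given in the sources used here. An IgG control of WT liver is not analysed here. Read depth is unknown, so the lists give no interval on a single value.

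Groups were taken from the sample titles, and animals are named by the numbers there. Peaks on chromosomes 1 to 19 and X were used, and those that overlapped or touched in any of the lists were joined into one region. A region counted as occupied from 1 bp. Covered bases were counted once, and scores were used as ranks within a list. Group means were compared by two-sided exact permutation tests over all assignments, with Benjamini-Hochberg adjustment over 3 comparisons, at 0.05 (Python 3.11.15, NumPy 2.4.6). There were 252 assignments for 5 animals against 5, and fewer where animals were left out. The genome was tiled in stretches of the window's length. The merging, occupancy calls and test were tested on simulated data. Regions named with values were those in all 15 animals, those whose occupancy differed by 3 or more of 5 animals between groups, and that of the Cyp2c37 window. Alternatives were lists of equal number, the top 50% by score, a window extended by 100 kb, other flanks, medians, another occupancy rule and leaving out animals. The window, member genes, lists and tests were chosen with earlier results of these data known. Promoters came from RefSeq (GRCm38.p6), with alignments by Biopython, and no coordinate was converted between builds. Protein sequences were not used here.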

Additional observations from a re-analysis of the deposited data

Results flagged for a closer look

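HCC animal 123390 stood apart from its group in the Cyp2c37 window. Its peak covered 5925 bp, against 787 bp in 125278 and 0 bp in the other 3 nodules, a gap that exceeds the range expected of 5 samples by Dixon's criterion at 95%. Of 17 sets of 5 values examined in this way, 1 was singled out, and chance flags about 1 in 20 groups of normally distributed values. Covered length in this window has a floor at 0 bp, where 3 of the nodules lay. That rate therefore does not apply here, and the flag does not measure how unusual the nodule is. The same nodule had the highest covered length over the whole cluster, 127.6 kb.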

How the results depend on the processing

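The fall of the cluster against its flanks from WT to inflamed livers kept its direction and passed under every alternative run, with differences from -63336 to -55474 bp when 1 animal was left out (exact permutation tests, adjusted p = 0.0238 in each). Groups that do not overlap stay apart when an animal is left out. The p of those runs was therefore fixed beforehand and gives no further support. The smallest differences came from the shorter lists, -37334 bp with lists of equal number and -33862 bp with the top 50% by score.

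Leaving out animals one at a time gave inflamed minus WT of -35466 to -13220 bp for covered length, -8.85 to -3.35 for peaks and -0.03024 to -0.015971 percentage points for share, with the first of each pair reached without WT 130748. The same values were obtained without both lists that lay apart. Without both lists with peaks on chromosome Y, covered length gave -22665 bp for inflamed minus WT and -7597.2 bp for HCC minus WT, and neither passed. HCC minus inflamed ranged from -13528 to 15068 bp, from -1.4 to 3.1 peaks, from -0.0084494 to 0.0068759 percentage points and, against the flanks, from -10082 to 20886 bp. It reversed without HCC 123390 in all 4 measures (-5989.9 bp against the flanks) and, against the flanks, without HCC 124711.

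With the top 50% of each list HCC minus inflamed also reversed to -595 bp, -1.4 peaks, -0.0051625 percentage points and -418.7 bp against the flanks. It was -10783 bp as a difference of medians, and with lists of equal number -0.0008941 percentage points and -4673.2 bp against the flanks. Against flanks of 500 kb it was -2496.6 bp per Mb, and -10082 bp both without the lists that lay apart and without those with peaks on chromosome Y. None of these passed the test, and the cause was not tested. HCC minus WT against the flanks ranged from -69188 to -38220 bp with 1 animal left out, passing without HCC 124711, and was -73417 bp without both lists that lay apart (exact permutation test, adjusted p = 0.0429). The overlap between these groups came from the lists that lay apart, so leaving both out fixed this last p at the smallest possible.

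Occupancy of at least 4 animals against at most 1 gave 1 region for inflamed and not WT, 2 for WT and not inflamed, and 1 for inflamed and not HCC, where all against none gave 0. Without inflamed 149199 the last count was 1, and with each other animal left out 0. Of all 231 alternative values of the group differences, 208 kept direction and side of the threshold. The core regions, score percentiles and ranks among stretches were recomputed without the lists that lay apart, a choice made after the data were seen. Read depth is unknown, and a list shows no signal under its caller's threshold. No paired analysis was possible because the groups share no animal numbers.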
